A study of Mus musculus with 4 samples.

Results

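The genes described here are the mouse symbols that end in -ps or in -ps and a number, the nomenclature used for named pseudogenes. They were taken by that ending alone from the 36846 gene symbols of one RNA-seq table of mouse embryonic fibroblasts, connective tissue cells grown from embryos. There were 151 such symbols, held as 262 transcripts, and 61 of them had a parent in the table, that is, a symbol equal to the part of the name before -ps. The 61 copies belonged to 45 different parents, and the other 90 had no parent of that name there.

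The libraries came from Dnmt3l-KO fibroblasts (n = 2) and WT fibroblasts (n = 2). Dnmt3l encodes a catalytically inactive relative of Dnmt3a and Dnmt3b that helps them place new DNA methylation, chiefly in germ cells. Both genotypes were C57BL/6 lines at passage 4, made from embryos of day 13.5 to 14.5 from intercrosses of Dnmt3l heterozygotes, and such lines serve as donor cells for nuclear transfer. Whether libraries of 1 genotype came from different embryos is not stated, so p-values reflect only how far these libraries vary, which may be technical. RNA was depleted of ribosomal RNA and primed at random, so transcripts without a poly(A) tail could also be read.

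Total estimated counts per library were 51465395 and 40681328 in Dnmt3l-KO, against 47776612 and 41049869 in WT. Dnmt3l itself had 0 counts in both Dnmt3l-KO libraries, against 6 and 1 in the WT libraries, a level so low that it checks the labels only weakly. All of the 10 fibroblast markers had counts, and their summed level ranged from 16772 to 23919 CPM (counts scaled to a common library total), while the lists for leukocytes, endothelium, epithelium, muscle and germ cells each summed to between 0.212 and 27.2 CPM. The endothelial list gave 17.8 and 4.90 CPM in Dnmt3l-KO, against 7.004 and 8.55 CPM in WT, nearly all of it from Kdr, and Dppa3 of the germ cell list was at 0 in all libraries. The part of other cell types in the results below was not tested.

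A pseudogene is a copy or relic of a gene that has lost, or is presumed to have lost, the ability to make the parent's protein. Processed pseudogenes arise when an mRNA is copied into DNA and inserted elsewhere in the genome, so they have no introns and usually no promoter of their own. Unprocessed pseudogenes arise by duplication of a stretch of the genome and keep the exon structure, and unitary ones are genes that decayed in a species without leaving a working copy. Because many copies are nearly the same letter for letter as the parent's mRNA, a short read can match both, and the count of each then depends on how such reads were divided. Neither that division nor the read length is given in the sources used here.

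The sequences below show how much or how little separates a copy from its parent for the copies whose counts the results turn on. They are 100-base stretches of the parent's coding sequence and the matching stretch of the copy, read 5′ to 3′ from GENCODE M21 transcripts of GRCm38. Capitals mark the bases that differ, and substitutions are written with the parent's base, its position counted from 1 at the first base of the parent's coding sequence, and the copy's base.

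Atp6v0c-ps2 is a single-exon processed pseudogene on chromosome 6, and the stretch lies at chr6:37806146-37806245 on the plus strand. Over the 465 bases of its GENCODE record it was 99.8% identical to Atp6v0c, a gene of chromosome 17, with the substitution T111C as the sole difference.
Atp6v0c-ps2: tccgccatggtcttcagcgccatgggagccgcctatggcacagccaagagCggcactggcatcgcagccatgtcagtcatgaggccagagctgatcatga
Atp6v0c: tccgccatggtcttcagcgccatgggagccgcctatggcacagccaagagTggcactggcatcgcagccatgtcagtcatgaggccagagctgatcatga

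Nutf2-ps1, on the minus strand of chromosome 19, has the stretch chr19:53588608-53588707, a single exon and the GENCODE type protein coding in spite of its name. It matched Nutf2, a gene of chromosome 8, at every one of 868 aligned bases, so both lines carry no capital.
Nutf2-ps1: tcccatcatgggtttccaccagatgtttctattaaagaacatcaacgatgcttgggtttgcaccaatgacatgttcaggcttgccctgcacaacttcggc
Nutf2: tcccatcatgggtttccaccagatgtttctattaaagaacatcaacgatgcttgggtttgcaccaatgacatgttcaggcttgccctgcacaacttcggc

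Both ribosomal protein copies shown next are processed pseudogenes on the minus strand. Rps15a-ps5 (chr5:105797535-105797634) differed from Rps15a at 5 coding bases, namely C31T, A82T, T150C, T158A and A254G, of which 3 fall in the stretch. Rps13-ps4 (chr8:119602463-119602562) differed from Rps13 at 3 coding bases, C106A, G121C and T411C, of which 2 fall in the stretch.
Rps15a-ps5: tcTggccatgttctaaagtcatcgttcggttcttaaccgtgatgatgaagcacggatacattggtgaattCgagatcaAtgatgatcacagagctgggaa
Rps15a: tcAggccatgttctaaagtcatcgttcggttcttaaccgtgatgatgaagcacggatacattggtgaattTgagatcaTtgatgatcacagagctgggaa
Rps13-ps4: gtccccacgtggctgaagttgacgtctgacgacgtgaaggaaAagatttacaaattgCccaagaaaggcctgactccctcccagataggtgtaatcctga
Rps13: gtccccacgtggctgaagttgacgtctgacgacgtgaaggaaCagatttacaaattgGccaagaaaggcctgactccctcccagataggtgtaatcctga

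Gpr137b-ps and Pisd-ps1 are unprocessed copies with up to 7 exons each, shown because they carry counts close to or well below those of their parents while their letters differ to unlike extents. Gpr137b-ps, on the minus strand of chromosome 13 like its parent, differed at 5 of 1155 coding bases. Pisd-ps1, on the plus strand of chromosome 11, differed from Pisd, on the minus strand of chromosome 5, at 53 of 1112 aligned coding bases, 10 of them in the stretch.
Gpr137b-ps: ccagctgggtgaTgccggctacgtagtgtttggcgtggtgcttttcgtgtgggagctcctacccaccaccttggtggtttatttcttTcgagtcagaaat
Gpr137b: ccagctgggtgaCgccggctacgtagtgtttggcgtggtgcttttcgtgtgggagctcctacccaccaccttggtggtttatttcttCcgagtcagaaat
Pisd-ps1: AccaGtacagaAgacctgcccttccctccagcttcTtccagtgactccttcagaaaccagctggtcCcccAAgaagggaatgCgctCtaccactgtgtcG
Pisd: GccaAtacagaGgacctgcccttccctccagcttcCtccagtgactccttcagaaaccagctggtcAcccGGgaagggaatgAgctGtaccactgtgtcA

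Most -ps symbols had no counts in these fibroblasts. Of the 151, 66 had a count above 0 in some library (43.7%), against 57.4% of all symbols in the table and 49 of the 110 other symbols that the table describes as pseudogenes (44.5%). Counts appeared in all libraries for 37 of the 66, in 3 libraries for 8, in 2 libraries for 4 and in a single library for 17. Of these 17, 6 were seen in Dnmt3l-KO replicate 1, 2 in Dnmt3l-KO replicate 2, 7 in WT replicate 1 and 2 in WT replicate 2, and 12 rested on 1 count. With a minimum of 10 counts over all libraries, 42 of the 151 remained. The estimated counts are whole numbers, and 17 of the 85 symbols without a count had a deposited FPKM above 0 in some library, at most 0.00395.

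The share with a count was counted for each kind of copy. By their GENCODE type, 35 of 52 processed pseudogenes had a count (67.3%), against 19 of 57 unprocessed ones (33.3%) and 5 of 14 unitary or polymorphic ones (35.7%). A further 16 symbols had another type, nearly all protein coding, and 3 of them had a count (18.8%). The 12 symbols without a GENCODE match included 4 with a count (33.3%). Copies of ribosomal protein genes, which encode subunits of the cytosolic ribosome, were of the processed type in 18 of 19 cases, and 16 of the 19 had a count. Of those 16, 5 copies of Rps12 that match another of the 5 letter for letter rested on 1 count each in Dnmt3l-KO replicate 1. At a minimum of 10 counts, the numbers were 20 of 52 processed (38.5%), 14 of 57 unprocessed (24.6%) and 4 of 14 unitary or polymorphic pseudogenes (28.6%), and 9 of the 19 ribosomal protein copies. Symbols named for genes of sensing and of handling foreign compounds were mostly without counts. Above 0 were 2 of 22 olfactory receptor symbols, 2 of 8 vomeronasal receptor symbols and 2 of 10 symbols of cytochromes P450, major urinary proteins and similar families. GENCODE types several of the receptor symbols as protein coding, among them Olfr1174-ps, Olfr911-ps1, Vmn1r207-ps and Vmn2r-ps159. None of the 4 relics of natural killer cell receptor and MHC genes had a count, and 1 of 8 symbols of proteases, their inhibitors and defensins did. A symbol with no count may still be transcribed below the depth of these libraries, where 3 counts came to between 0.0601 and 0.0719 CPM (counting error only).

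Together the -ps symbols took a small share of all counts. It was 0.0287% and 0.0284% in Dnmt3l-KO libraries, against 0.0243% and 0.0233% in WT libraries. In CPM their sum was 296.2 and 276.2 in Dnmt3l-KO, against 246.2 and 229.4 in WT, so that both Dnmt3l-KO libraries lay above both WT libraries. Without a single symbol, Atp6v0c-ps2, the sum was 214.8 and 221.2 CPM in Dnmt3l-KO, against 245.9 and 229.3 CPM in WT, and the order of the genotypes was the other way round. The 3 highest symbols (Nutf2-ps1, Pisd-ps3 and Atp6v0c-ps2) held 64.4% of the members' counts in Dnmt3l-KO and 54.0% in WT.

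No -ps symbol passed the test between the genotypes at an adjusted p of 0.05. The test (edgeR, quasi-likelihood F-test, Benjamini-Hochberg adjustment over all symbols) covered 14760 symbols that passed a filter on low counts, of which 3 were called (0.0203%), and 33 of the -ps symbols were among those tested. The other 33 symbols with a count were too low. At an unadjusted p under 0.05 there were 4 of 33, against 4.15% of all symbols tested: 1 was higher in Dnmt3l-KO, where 2.34% of all symbols were, and 3 were lower, where 1.81% were. DESeq2 called 1 of the 33, Atp6v0c-ps2, beside 0.23% of all symbols. The log2 fold changes (Dnmt3l-KO over WT) were above 0 in 15 of the 33 (51.3% of all symbols) and below 0 in 18 (48.7% of all symbols), with a median of -0.02, beside 0.01 over all symbols tested. Both Dnmt3l-KO libraries were above both WT libraries in 3 of the 33, where 16.2% of all symbols were, and below them in 7, where 16.5% of all symbols were. For 2 of the 33, Hist3h2bb-ps and Rps13-ps4, the filter was passed through the WT libraries alone, so a count of these members by direction is partly set by the filter. Atp6v0c-ps2 reached it in both Dnmt3l-KO libraries and in 1 WT library, so it too was kept through the genotype where it was higher. The records of 12 of the 33 overlap another annotated gene, 8 of them on the same strand, and whether their counts include reads of that gene was not tested. In RNA from whole cultures, fewer cells of a type and less RNA per cell cannot be told apart.

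**Figure D1:**
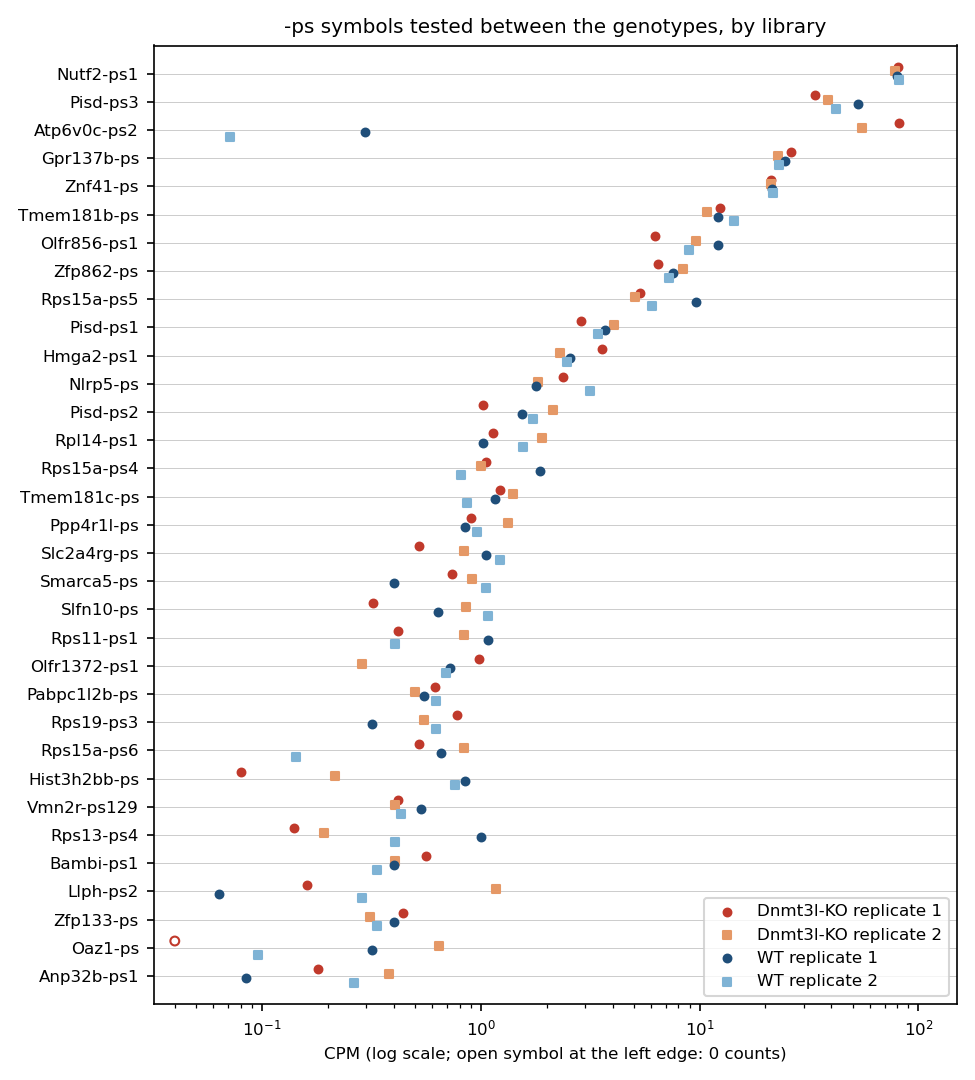
CPM of each of the 33 tested -ps symbols in each library, on a log axis, with the symbols ordered by their mean and Dnmt3l-KO libraries in red tones above WT libraries in blue tones within each row. Most rows are tight or overlapping, and Atp6v0c-ps2 is the row in which the genotypes stand far apart, at 81.4 and 55.0 CPM in Dnmt3l-KO against 0.297 and 0.0719 CPM in WT.

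The plot of CPM by library sets 1 symbol apart from all others tested. Atp6v0c encodes the proteolipid c subunit of the membrane sector of the vacuolar proton pump, which acidifies lysosomes and other compartments, and Atp6v0c-ps2 is its processed copy. The copy had 4063 and 2300 counts in Dnmt3l-KO libraries, against 14 and 3 counts in WT libraries. That is 81.4 and 55.0 CPM in Dnmt3l-KO, against 0.297 and 0.0719 CPM in WT, and the genotypes did not overlap. The summed counts gave a ratio of 363 for Dnmt3l-KO over WT, with an exact 95% counting interval of 226 to 623, which covers counting error only. The copy reached the filter on low counts in both Dnmt3l-KO libraries, where it was higher, and in 1 WT library. The edgeR log2 fold change was 8.46 ± 0.48 (SE, n = 2 per genotype) with an adjusted p of 0.051, just short of the threshold. Without Dnmt3l-KO replicate 1 that adjusted p was 0.0495, without Dnmt3l-KO replicate 2 it was 0.032, and the call was made in 7 of 12 alternative settings. DESeq2 on the same symbols gave an adjusted p of 1.3e-19, and the authors' deposited table gave the transcript a log2 fold change of 5.85 with a standard error of 0.30 and an adjusted p of 1.88e-78. Of the 28097 transcripts given an adjusted p in the authors' deposited table, 124 were below 0.05 (0.441%). Of -ps symbols, 19 transcripts had an adjusted p, and that of Atp6v0c-ps2 was the 1 below 0.05.

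The parent's counts lay on the other side, lower in Dnmt3l-KO in both libraries. Atp6v0c had 8312 and 6586 counts in Dnmt3l-KO, against 10547 and 8450 in WT, or 166.5 and 157.5 CPM in Dnmt3l-KO against 223.9 and 202.4 CPM in WT. Its log2 fold change was -0.40 ± 0.10 (SE), with the smallest unadjusted p among the parents (0.012) and an adjusted p of 0.999 by edgeR. Copy and parent added together averaged 230.2 ± 25.0 CPM in Dnmt3l-KO and 213.3 ± 15.3 CPM in WT (SD, n = 2 each). For the sum, edgeR gave a log2 fold change of 0.11 ± 0.12 (SE), at an adjusted p of 0.999. The copy held 32.8% and 25.9% of the summed counts in Dnmt3l-KO libraries, against 0.133% and 0.035% in WT libraries. Of the 50-base stretches of the copy's GENCODE record of 465 bases, 88.0% also occur letter for letter in a transcript of the parent. The counts are of a RefSeq transcript of the copy, and its sequence was not compared with the parent's. Whether the counts of the copy in Dnmt3l-KO came from its own RNA, or from reads of the parent given to it, was not tested, since the reads were not used here.

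Among the pairs in which the copy carried more counts than its parent, the copy of a nuclear transport gene stood highest and did so in every library. Nutf2 encodes nuclear transport factor 2, which carries Ran in its GDP form into the nucleus. Nutf2-ps1 had 4028 and 3262 counts in Dnmt3l-KO, against 3757 and 3403 in WT. Nutf2 had 879 and 703 counts in Dnmt3l-KO, against 748 and 663 in WT. The copy thus held 82.1% and 82.3% of the pair's counts in Dnmt3l-KO and 83.4% and 83.7% in WT, a range of under 2 percentage points over all libraries. Per length, the copy averaged 79.6 FPKM over the 4 libraries and the parent 7.56 FPKM. The pair summed to 96.6 ± 2.46 CPM in Dnmt3l-KO and 96.5 ± 1.26 CPM in WT (SD, n = 2 each), and the copy's log2 fold change was -0.02 ± 0.09 (SE). With every aligned base identical (96.1% of its 50-base stretches occur in Nutf2), the counts of copy and parent cannot be told apart by sequence in that stretch, and the sum is the value that does not depend on the division.

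Pisd encodes phosphatidylserine decarboxylase, the mitochondrial enzyme that makes phosphatidylethanolamine, and it has 3 copies among the -ps symbols, all with counts. Pisd-ps3 had 1683 and 1623 counts in Dnmt3l-KO, against 2503 and 1762 in WT, or 33.7 and 38.8 CPM in Dnmt3l-KO against 53.1 and 42.2 CPM in WT. Its genotypes did not overlap, and its log2 fold change was -0.40 ± 0.15 (SE) with an unadjusted p of 0.048 and an adjusted p of 0.999 by edgeR. The parent had 2170 and 1415 counts in Dnmt3l-KO, against 1998 and 1722 in WT, so that Pisd-ps3 held 43.7% and 53.4% of the counts of the 2 symbols in Dnmt3l-KO and 55.6% and 50.6% in WT. Copy and parent were therefore about level, with the parent ahead in 1 of the libraries. In the summed counts the parent is ahead once WT replicate 1 is left out. Per length the copy averaged 13.3 FPKM over the 4 libraries and the parent 15.7 FPKM. Pisd-ps1 and Pisd-ps2 were lower, at 1.12 and 0.992 FPKM, and were 94.1% and 93.9% identical to Pisd. The 4 symbols together gave 81.1 and 78.8 CPM in Dnmt3l-KO, against 100.8 and 88.6 CPM in WT, and a log2 fold change of -0.24 ± 0.10 (SE; edgeR gave an adjusted p of 0.999). Pisd-ps3 was not matched to a GENCODE record by its symbol.

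Gpr137b encodes a multi-pass membrane protein of the lysosome. Its duplicate Gpr137b-ps had 1307 and 952 counts in Dnmt3l-KO, against 1156 and 960 in WT, and held 52.2% and 57.3% of the pair's counts in Dnmt3l-KO and 52.1% and 52.7% in WT. The copy was thus ahead of the parent in every library by a small margin, and per length it averaged 7.44 FPKM beside 5.82 FPKM of the parent. Of the 50-base stretches of the copy's record, 19.8% occur in the parent, and the margin can depend on how shared reads were divided. That division was not tested. The pair summed to 44.9 ± 7.34 CPM in Dnmt3l-KO and 45.4 ± 2.44 CPM in WT (SD, n = 2 each). The log2 fold change of the copy was 0.04 ± 0.12 (SE), and the genotypes overlapped.

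A further 2 copies had counts where the parent had none. Nlrp5 encodes a maternal-effect protein of the oocyte and had 0 counts in every library, whereas Nlrp5-ps, an unprocessed copy with up to 13 exons, had 119 and 76 counts in Dnmt3l-KO, against 84 and 132 in WT. These overlap, and the log2 fold change was -0.23 ± 0.37 (SE). The GENCODE record of Nlrp5-ps overlaps 1 other record on its own strand, Vmn1r90. Gpx2, which encodes a glutathione peroxidase of the gut lining, also had 0 counts, and Gpx2-ps1 had 0 and 1 in Dnmt3l-KO, against 2 and 0 in WT, too few to speak of a level.

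**Figure D2:**
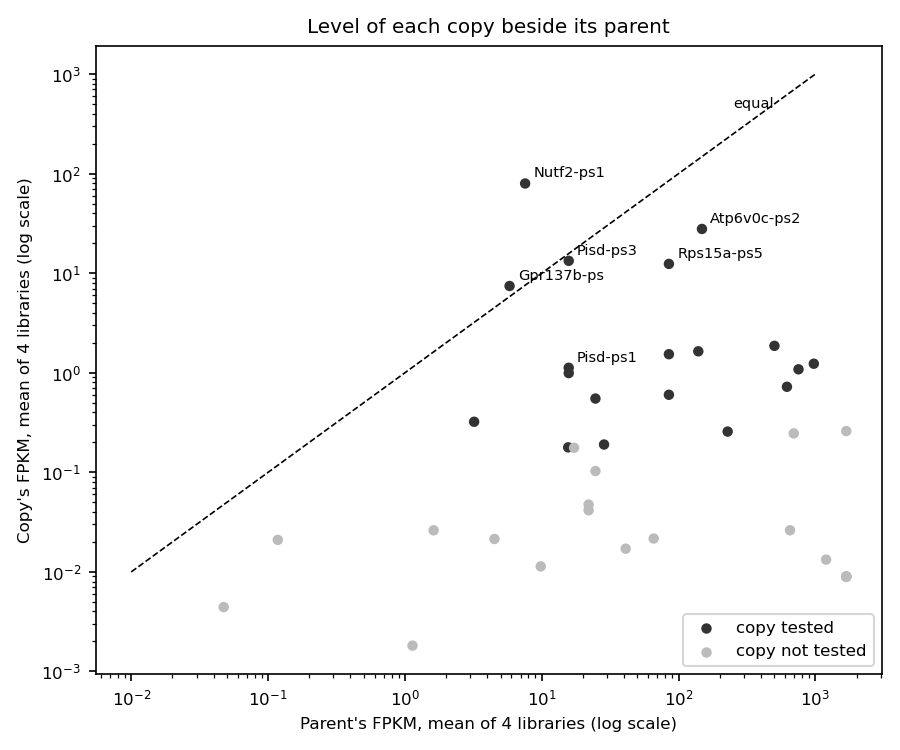
Mean FPKM over the 4 libraries of each copy (vertical axis) against its parent (horizontal axis), both on log axes, for the 40 pairs in which copy and parent both had counts (Nlrp5-ps and Gpx2-ps1, whose parents had 0 counts, are not drawn). The dashed line marks equal levels: Nutf2-ps1 and Gpr137b-ps lie above it, Pisd-ps3 just below it, and the other copies further below.

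Those copies are exceptions, as the plot of copies beside parents shows. Of 42 pairs with a count for the copy, the copy held less than 1% of the pair's counts in 29, and it had more counts than the parent in 5. Measured over the 40 pairs with both records in GENCODE, the share of a copy's 50-base stretches that occur in the parent ran over the whole scale, with a median of 36.6%. Near identity did not go with a high share of the counts in every case. Apoo-ps, a copy of the gene for apolipoprotein O, a protein of the inner mitochondrial membrane, was identical to Apoo over 586 bases and had 0 counts in both Dnmt3l-KO libraries, against 23 and 0 in WT libraries, beside 965 and 617 counts of the parent in Dnmt3l-KO and 857 and 784 in WT. Every 50-base stretch of the Apoo-ps record occurs in Apoo, so there the counts of copy and parent cannot be told apart by sequence. Llph-ps2, a copy of Llph that differs from it in the coding sequence by C16T alone, had 8 and 49 counts in Dnmt3l-KO, against 3 and 12 in WT. It held 0.500% and 4.08% of the pair's counts in Dnmt3l-KO and 0.173% and 0.906% in WT, and its log2 fold change was 1.91 ± 1.17 (SE) with genotypes that overlapped.

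**Figure D3:**
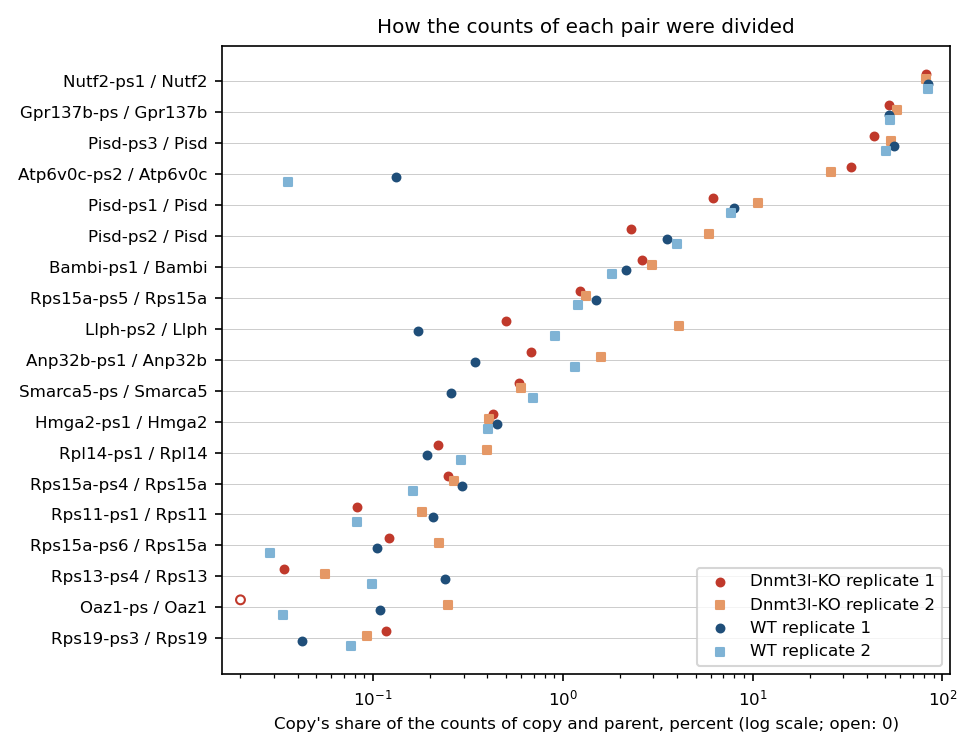
Share of the counts of copy and parent that the copy holds, in percent on a log axis, for the 19 tested copies whose parent had counts, with Dnmt3l-KO libraries in red tones above WT libraries in blue tones. The shares of Nutf2-ps1, Gpr137b-ps and Pisd-ps3 lie between 43.7% and 83.7% in every library, and Atp6v0c-ps2 is at 32.8% and 25.9% in Dnmt3l-KO against 0.133% and 0.035% in WT.

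Copies of ribosomal protein genes were numerous and low beside their parents. Of 19 such copies, 16 had a count and 7 were tested, with log2 fold changes above 0 in 3 and below 0 in 4. Rps15a-ps5, the highest, had 267 and 211 counts in Dnmt3l-KO, against 453 and 254 in WT, without overlap. Its log2 fold change was -0.60 ± 0.26 (SE), with an unadjusted p of 0.069 and an adjusted p of 0.999 by edgeR. This is a sum over transcripts that differ: in the authors' deposited table the symbol's transcripts stood at -0.60 ± 0.34 and -0.02 ± 0.35 (log2 fold change, SE). Its parent Rps15a, a protein of the small subunit, had 21388 and 15647 counts in Dnmt3l-KO, against 29702 and 20870 in WT, with a log2 fold change of -0.49 ± 0.16 (SE). The copy held 1.23% and 1.33% of the pair's counts in Dnmt3l-KO and 1.50% and 1.20% in WT, so copy and parent kept nearly the same proportion in every library. The record of Rps15a-ps5 overlaps Lrrc8d on the opposite strand, and that of Rps15a-ps6 overlaps Nudcd3 on the same strand. The other tested copies of Rps15a were lower and did not share 1 direction, with log2 fold changes of -0.38 ± 0.47 for Rps15a-ps4 and 0.73 ± 0.75 for Rps15a-ps6 (SE).

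Rps13-ps4 is a copy of the gene for Rps13, another protein of the small subunit. The copy had 7 and 8 counts in Dnmt3l-KO, against 47 and 17 in WT, without overlap, and the ratio of summed counts was 0.227 for Dnmt3l-KO over WT, with an exact 95% counting interval of 0.120 to 0.403. The edgeR log2 fold change was -2.08 ± 0.63 (SE) with an unadjusted p of 0.021 and an adjusted p of 0.999, beside -0.13 ± 0.13 (SE) for Rps13. The copy passed the filter on low counts through the WT libraries alone, where it was higher, which limits what these p-values can carry. WT replicate 1 held most of the WT counts of the copy, and without it the log2 fold change was -1.29. Its GENCODE record lies on the same strand as the gene Taf1c and overlaps it, so reads there need not belong to the copy. Rps19-ps3 had 39 and 23 counts in Dnmt3l-KO, against 15 and 26 in WT, a log2 fold change of 0.51 ± 0.50 (SE), beside -0.31 ± 0.12 (SE) for Rps19.

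Among chromatin proteins, Hist3h2bb-ps, a relic of a histone H2B gene whose parent symbol is not in the table, had 4 and 9 counts in Dnmt3l-KO, against 40 and 32 in WT. The genotypes did not overlap, and the summed counts gave a ratio of 0.175 for Dnmt3l-KO over WT, with an exact 95% counting interval of 0.0888 to 0.318. Its log2 fold change was -2.46 ± 0.57 (SE), with an unadjusted p of 0.0073 and an adjusted p of 0.999 by edgeR and an adjusted p of 0.694 by DESeq2. The symbol passed the filter on low counts through the WT libraries alone, where it was higher, which limits what these p-values can carry. The log2 fold change ranged from -3.29 to -1.90 when a library was left out. The GENCODE record of Hist3h2bb-ps was 95.3% identical over 381 aligned bases to Hist3h2ba, a gene of another name. How reads were divided between these was not tested. Anp32b-ps1, a copy of the gene for an acidic nuclear histone chaperone, had 9 and 16 counts in Dnmt3l-KO, against 4 and 11 in WT, which overlap.

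Symbols without a parent in the table included relics with nearly equal levels in all libraries. Znf41-ps, a relic of a gene for a zinc finger protein, gave 21.3 and 21.3 CPM in Dnmt3l-KO, against 21.5 and 21.6 CPM in WT. Although the 2 groups did not overlap, the log2 fold change was -0.02 ± 0.10 (SE). The GENCODE record of Znf41-ps was 99.5% identical over 2413 bases to Zfp991, a gene of another name. How reads were divided between these was not tested. Zfp862-ps, a unitary pseudogene of another zinc finger gene, had 323 and 351 counts in Dnmt3l-KO, against 355 and 301 in WT, and a log2 fold change of 0.01 ± 0.19 (SE). Neither zinc finger relic showed a difference beyond its error.

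The relics Tmem181b-ps and Tmem181c-ps, both on chromosome 17, belong to a family of genes for membrane proteins. In that order, their GENCODE records were 98.75% and 95.9% identical to Tmem181a over 1680 and 1386 aligned bases. How reads were divided between them and Tmem181a was not tested. Tmem181b-ps had 621 and 451 counts in Dnmt3l-KO, against 573 and 599 in WT, and its log2 fold change was -0.19 ± 0.15 (SE). Tmem181c-ps had 61 and 59 in Dnmt3l-KO, against 55 and 36 in WT, and its log2 fold change was 0.37 ± 0.33 (SE). Of the olfactory receptor symbols, Olfr856-ps1 was the highest, at 312 and 404 counts in Dnmt3l-KO, against 569 and 372 in WT, and the genotypes overlapped (log2 fold change of -0.40 ± 0.28, SE). Slc2a4rg-ps, a unitary pseudogene whose human counterpart encodes a regulator of a glucose transporter gene, had 26 and 35 counts in Dnmt3l-KO, against 50 and 51 in WT, and a log2 fold change of -0.75 ± 0.39 (SE; edgeR gave an adjusted p of 0.999).

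Other symbols of low counts had errors as large as their differences. Slfn10-ps, a relic of the schlafen family, had 16 and 36 counts in Dnmt3l-KO, against 30 and 45 in WT, and their CPM overlap. Ppp4r1l-ps, a relic related to a regulatory subunit of protein phosphatase 4, had 45 and 56 counts in Dnmt3l-KO, against 40 and 40 in WT, with a log2 fold change of 0.31 ± 0.36 (SE). Its counts overlap once scaled to CPM, at 0.901 and 1.34 in Dnmt3l-KO against 0.849 and 0.958 in WT. Bambi-ps1, a copy of the gene for a decoy receptor of the TGF-beta family, had 28 and 17 counts in Dnmt3l-KO, against 19 and 14 in WT, and its log2 fold change was 0.39 ± 0.43 (SE).

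Symbols with whole-number counts above 0 in 1 genotype alone had few counts. Ppp1r2-ps2, a copy of the gene for an inhibitor of protein phosphatase 1, had 4 and 10 counts in Dnmt3l-KO, against 0 and 0 in WT, and Itih5l-ps had 3 and 5 in Dnmt3l-KO, against 0 and 0 in WT. In the other direction Llph-ps1, Npm3-ps1 and Rpl17-ps10 had 0 counts in both Dnmt3l-KO libraries, against 11 and 0, 4 and 0, and 3 and 0 counts in WT, in that order of symbols. As with Apoo-ps, each of these WT counts came from WT replicate 1 alone. A count of 0 did not always mean a deposited FPKM of 0: Llph-ps1 had 0.0126 and 0.00363 FPKM in Dnmt3l-KO, against 0.378 and 0.0177 FPKM in WT. None of the 5 passed the filter on low counts, so they were not tested.

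**Figure D4:**
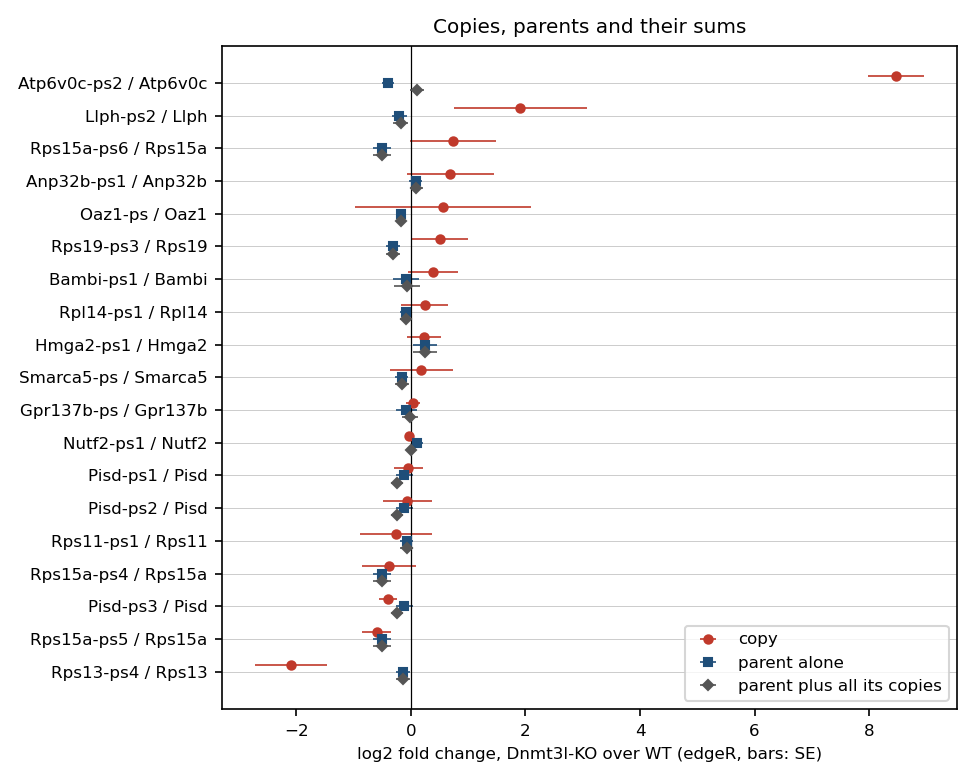
Log2 fold change (Dnmt3l-KO over WT, edgeR, bars show the SE) of the copy, of the parent alone and of the parent with all its copies added, for the 19 tested copies whose parent was also tested. Atp6v0c-ps2 is at 8.46 while the sum with its parent is at 0.11. The sum of Pisd with its copies is at -0.24, against -0.11 for Pisd alone.

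No parent passed the test between the genotypes. Of the 45 parents, 36 were tested and 0 passed at an adjusted p of 0.05 by edgeR (0.0203% of all symbols did), and 4 had an unadjusted p under 0.05 (4.15% of all symbols). The log2 fold change was above 0 in 9 of the 36 (51.3% of all symbols) and below 0 in 27 (48.7% of all symbols), with a median of -0.12, beside 0.01 over all symbols tested. DESeq2 called 0 of the parents (0.23% of all symbols) and 0 of the families described next. The parents with the smallest p after Atp6v0c were all ribosomal protein genes: Rps15a, Rps12 at -0.33 ± 0.13, Rps19 at -0.31 ± 0.12 and Rpl34 at -0.24 ± 0.10 (log2 fold change, SE, all with an adjusted p of 0.999 by edgeR).

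With every copy added to its parent, no family differed past the threshold. Of 14741 symbols then tested, 3 were called (0.0204%), and of the 37 families of a parent with its copies, 0 were called by edgeR. An unadjusted p under 0.05 was found for 3 of the 37 (Rps12, Rps15a and Rps19), against 4.12% of all symbols tested in that fit. The sum of Atp6v0c with its copy had a log2 fold change of 0.11 ± 0.12 (SE), and the parent held most of its counts in every library. Atp6v0c alone, at -0.40 ± 0.10 (SE), was not called either, so the missing call for the sum says little about the copy. The plot of copies, parents and their sums shows that the sum lay near the parent wherever the copy held a small share of the counts. In the fit with copies kept apart (14760 symbols, 0.0203% called), the other symbols that the table describes as pseudogenes, without a -ps name, gave 1 call among 21 tested. This was Gm9855, with 1602 and 1336 counts in Dnmt3l-KO, against 0 and 0 in WT (edgeR gave an adjusted p of 0.0055). It was named after its values had been seen, and how reads were divided between it and similar genes was not tested.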

How the data were processed

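RNA-seq was available for 2 Dnmt3l-KO and 2 WT fibroblast libraries. The submitters' processing notes name the build mm10 and the programs eXpress 1.4.1, DESeq2 1.8.0, TopHat2 2.0.12 and Cufflinks 2.2.1, without the role of each. Per the file headers, each RefSeq transcript has, in every library, an FPKM value and an estimated count, and all deposited estimated counts are whole. The same table carries the authors' comparison of the genotypes, per the file headers: a p-value (also adjusted), a test score, a mean signal and a log2 fold change and its SE.

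The gene symbol was read from each transcript's description, and counts and FPKM of the 116415 transcripts were summed per symbol. The members and the gene lists were chosen with earlier results of these data known. The test was edgeR 4.0.16 in R 4.3.3 (TMM scaling, filterByExpr, robust quasi-likelihood F-test, Benjamini-Hochberg adjustment over 14760 symbols, threshold 0.05), with no covariates, checked on simulated counts. CPM values use the TMM library sizes, and standard errors were derived from the F statistic. The exact permutation test of 2 against 2 libraries cannot go below 0.05 and was not used. Alternatives were DESeq2 1.42.0, limma 3.58.1 on log2(FPKM + 1) or log2(FPKM + 0.1), other scalings and filters, a replicate block, leaving out each library, and adding each copy to its parent.

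Copies and parents were matched by symbol to GENCODE M21 records (GRCm38, another name of mm10), which covered 139 of the 151 members and 62 of the 66 with a count. Copies were aligned with BLAST 2.17.0 to all GENCODE transcripts, and every 50-base stretch of a copy was looked up in the parent's transcripts. The counts are of RefSeq transcripts, whose sequences were not compared and may extend beyond the GENCODE records. Counting intervals are exact (conditional binomial) and cover counting error only, since PCR copies are not independent molecules. Named members were those with an adjusted p under 0.05, up to 8 with the smallest p in each direction, the 10 with the largest mean CPM, up to 8 with more counts than their parent, and up to 6 with 0 counts in 1 genotype; named parents were theirs and the 5 with the smallest p.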

Additional observations from a re-analysis of the deposited data

How the results depend on the processing

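Atp6v0c-ps2 was the 1 member whose call depended on the setting: it passed in 7 of 12 alternatives, with an adjusted p from 1.3e-19 to 0.221 and a log2 fold change from 5.61 to 9.83. Members called were therefore 1 in place of 0 with RLE scaling, with DESeq2, with limma at either pseudocount and with the replicate block, and 0 to 1 when a library was left out (1 without either Dnmt3l-KO library in turn, 0 without either WT library in turn). Leaving out a library leaves 1 in that genotype, which is then assumed to vary like the others. Over all symbols, 3 were called by edgeR and 4 with RLE scaling, against 34 by DESeq2, 6 by limma on log2(FPKM + 1), 9 by limma on log2(FPKM + 0.1) and 8 with no filter on low counts, and 2 to 6 when a library was left out. The cause of these differences was not tested. The members' median log2 fold change of -0.02 ranged from -0.071 (without Dnmt3l-KO replicate 2) to -0.0055 when a library was left out. It was 0.011 with limma on log2(FPKM + 1). Families summed with their parent gave 0 calls in every alternative run. A minimum of 10 counts left 42 members in place of 66. Members ahead of their parent were 5, or 4 by mean FPKM and 4 to 5 when a library was left out. Of 471 values of named genes under 13 alternatives, 464 stayed on the same side of the threshold and the 7 others were those of Atp6v0c-ps2; the sign differed from the main value in 25, all of them without a call.

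The genotypes share replicate numbers, but nothing in the labels says that these pair libraries, and the deviations of same-numbered libraries correlated at r = 0.0999 across 14760 symbols. With the replicate number as a block, 4 symbols and 1 member were called. There were 2 libraries per genotype, and the division of reads between near-identical copies was not tested.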
